A study of Mus musculus with 2 samples.

Results

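The genes described here encode the metalloproteinases that cut extracellular matrix and cell-surface proteins, together with their inhibitors. They were taken by symbol: every matrix metalloproteinase (Mmp), tissue inhibitor of metalloproteinases (Timp), Adam, Adamts and Adamts-like gene that both deposited count files list. The rule found 85 of the 50559 genes in the files, namely 23 Mmp, 4 Timp, 34 Adam, 19 Adamts and 5 Adamts-like genes. RNA came from live GFP+ cells sorted by flow cytometry from digested dorsal skin of mice of genotype Polr2b.fl.fl.GFP; K14Cre aged postnatal day 21, when hair follicles rest (telogen). There is 1 group, with 2 replicate libraries, and both carry the floxed Polr2b allele, GFP and Cre, so there is no group without Cre or with an unmodified Polr2b, which encodes a subunit of RNA polymerase II. Cre is driven by the K14 promoter, active in basal epidermis and the follicle lineages that descend from it, and the labels call the cells keratinocytes. The skin was taken apart with collagenase and trypsin before sorting, and no undigested skin was analysed here. Each level below is therefore a description of this one population, and the single comparison that could be made is between its 2 libraries, replicate 1 over replicate 2. The labels name neither the animals nor their sex.

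Matrix metalloproteinases are zinc enzymes, secreted or held at the cell membrane, that are made as inactive precursors and cut collagens, laminins and other matrix proteins once the propeptide is removed. ADAM proteins are membrane-anchored, and those with an active protease domain shed growth factors, adhesion molecules and receptors from the cell surface, whereas ADAMTS enzymes are secreted and cut proteoglycans or trim procollagens. TIMPs occupy the active site of these enzymes, and in skin the balance between enzymes and inhibitors is known for its part in wound repair, keratinocyte migration and the shedding of ligands of the epidermal growth factor receptor.

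The libraries held 36692204 counts in replicate 1 and 33489967 counts in replicate 2, so that a level of 1 CPM, 1 count in each 1000000, stood for 36.7 and 33.5 counts. Levels of different genes are compared in TPM, which divides counts by the deposited gene length before scaling each library to 1000000. Markers of basal keratinocytes were high, led by Krt5 at 4491 TPM in replicate 1 and 7035 TPM in replicate 2. Markers of other cells were present as well: 10 of 10 fibroblast markers and 10 of 10 macrophage markers reached 1 CPM in both libraries, with Col1a1 at 2335 and 1097 TPM and Lyz2 at 3246 and 4743 TPM in replicates 1 and 2, whereas none of 5 T cell markers did. The libraries also differed in sex-linked RNA, with 112587 counts of Xist in replicate 1 and 11 in replicate 2, and 0 counts of the Y-linked Uty in replicate 1 and 2394 in replicate 2. The replicates therefore do not share a single animal, and in every ratio below, sex and other differences between the libraries cannot be told apart. In a bulk sample, fewer cells of a type and less RNA per cell cannot be told apart, and the cell of origin of the RNAs below cannot be read from these libraries.

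Of the 85 genes, 52 (61.2%) reached 1 CPM in both libraries, against 31.3% of all genes in the files, and 27 reached 10 CPM in both. Of all genes in the files, 17803 had no count. Among genes with a promoter in the RefSeq table used below, the difference was smaller. There, 34 of 54 members (63.0%) reached 1 CPM in both libraries, against 44.4% of 26534 genes. Detection divided the families. All 4 Timp and all 5 Adamts-like genes were detected, as were 16 of 19 Adamts genes and 13 of 23 Mmp genes, but only 14 of 34 Adam genes. Together the 85 genes took 0.365% of all counts in replicate 1 and 0.292% in replicate 2. Their RNA was concentrated in a few genes: Timp2 alone held 28.0% and 30.2% of their summed TPM in replicates 1 and 2. Timp2, Adam15 and Adamts1 together held 50.3% and 50.9%.

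**Figure D1:**
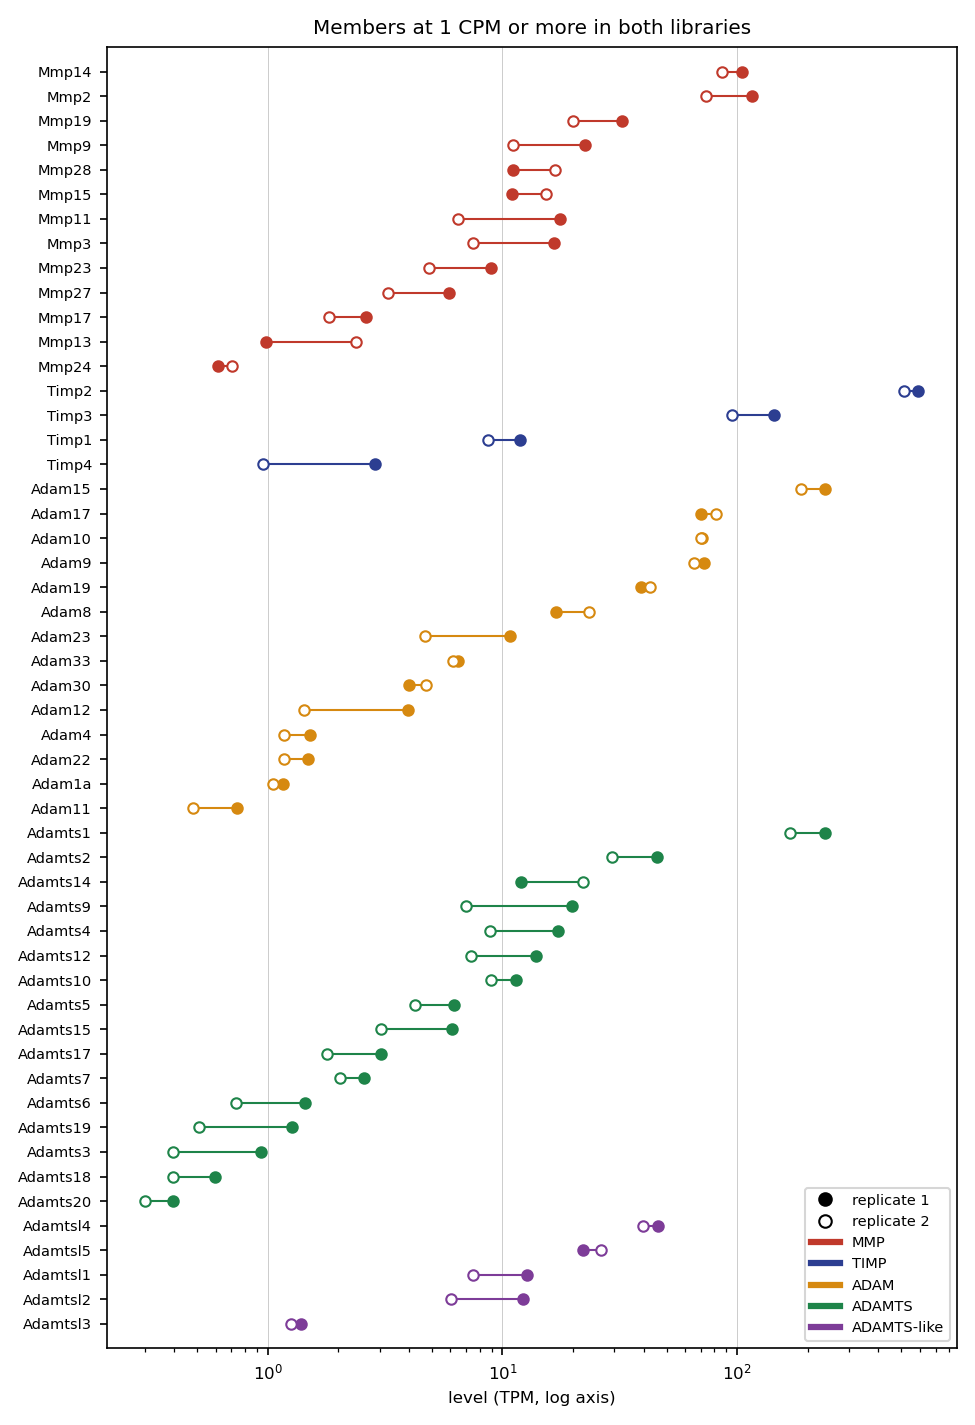
TPM on a log axis of the 52 detected genes, grouped by family and ordered by mean level within each family. A filled point stands for replicate 1, an open point for replicate 2 and a colour for each family. Timp2 lies farthest to the right with 591 TPM in replicate 1 and 516 TPM in replicate 2. Adamts20 lies farthest to the left with 0.393 TPM in replicate 1 and 0.301 TPM in replicate 2.

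The inhibitors were the most abundant of the 5 families per length. Summed over the 4 genes, TIMP RNA reached 749.5 TPM in replicate 1 and 620.5 TPM in replicate 2, which was 35.8% ± 0.590 (SD, n = 2) of the summed TPM of the 85 genes. Nearly all of it came from a pair of genes. Timp2, whose protein inhibits Mmp2 and also bridges its precursor to Mmp14 for activation, had 591 TPM in replicate 1 and 516 TPM in replicate 2, rank 211 among all genes by mean TPM. Timp3, which binds to the matrix and also inhibits Adam17 and several ADAMTS enzymes, had 143 TPM in replicate 1 and 94.7 TPM in replicate 2. These were far above the other two inhibitors in both libraries. Timp1, the secreted inhibitor that forms a complex with the precursor of Mmp9, had 11.8 TPM in replicate 1 and 8.66 TPM in replicate 2, which rested on 156 counts in replicate 1 and 104 in replicate 2. Timp4 had 2.87 TPM in replicate 1 and 0.957 TPM in replicate 2, with 125 counts in replicate 1 and 38 in replicate 2, the only TIMP under 1 TPM in a library.

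The matrix metalloproteinases together reached 354 TPM in replicate 1 and 253 TPM in replicate 2, so that summed TIMP RNA was 2.12 and 2.46 times summed Mmp RNA in replicates 1 and 2. This ratio is one of RNA and says nothing of active enzyme. A gelatinase and a membrane-type enzyme led the family. Mmp2, the gelatinase that cuts denatured collagen and type IV collagen, had 115 TPM in replicate 1 and 74.0 TPM in replicate 2. Mmp14, the membrane-bound collagenase that activates the precursor of Mmp2, had 105 TPM in replicate 1 and 86.5 TPM in replicate 2. Their order changed between the libraries, with Mmp2 above Mmp14 in replicate 1 and below it in replicate 2, so the pair is not separated beyond the spread. With Timp2, all 3 components of the Mmp2 activation complex were thus among the abundant RNAs of the list.

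A middle tier followed. Mmp19, a secreted enzyme that cuts basement membrane proteins, had 32.2 TPM in replicate 1 and 19.97 TPM in replicate 2. Mmp9, the second gelatinase, had 22.6 TPM in replicate 1 and 11.1 TPM in replicate 2. Mmp28, known as epilysin and made by keratinocytes, had 11.1 TPM in replicate 1 and 16.8 TPM in replicate 2, and the membrane-type Mmp15 had 11.0 TPM in replicate 1 and 15.3 TPM in replicate 2. Mmp9 was above Mmp28 in replicate 1 but below it in replicate 2, so the order within this tier was not the same in both libraries. The stromelysins Mmp11 and Mmp3 changed places between the libraries, Mmp11 with 17.6 TPM in replicate 1 and 6.45 TPM in replicate 2 and Mmp3 with 16.5 TPM in replicate 1 and 7.49 TPM in replicate 2. Further down were Mmp23 with 8.98 and 4.84 TPM and Mmp27 with 5.92 and 3.27 TPM in replicates 1 and 2. Mmp17, a membrane-type enzyme held by a lipid anchor, had 2.61 and 1.82 TPM, and Mmp24, the lowest detected Mmp by mean TPM, had 0.611 and 0.705 TPM.

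The interstitial collagenases, which make the initial cut in fibrillar collagen, were scarce. Mmp13 was the only one of 4 to be detected, with 0.984 TPM in replicate 1 and 2.38 TPM in replicate 2, from 39 counts in replicate 1 and 86 in replicate 2. Mmp8, the collagenase of neutrophils, had 4 counts in replicate 1 and 1 in replicate 2, and Mmp1a and Mmp1b had none in either library. Of the neutrophil markers, S100a8 had 8 counts in replicate 1 and 0 in replicate 2, S100a9 had 4 counts in replicate 1 and 4 in replicate 2 and 1 of 8 reached 1 CPM in both libraries, namely Csf3r with 16.5 and 14.6 TPM in replicates 1 and 2. Mmp10, a stromelysin that keratinocytes make at wound edges, had 4 counts in replicate 1 and 2 in replicate 2, and Mmp7 had 0 counts in replicate 1 and 2 in replicate 2. Mmp12, the elastase of macrophages, had 37 counts in replicate 1 and 23 in replicate 2, below 1 CPM in replicate 2, in libraries where the macrophage markers summed to 11915 TPM in replicate 1 and 13563 TPM in replicate 2. Mmp16, a membrane-type enzyme, had 51 counts in replicate 1 and 11 in replicate 2, and Mmp21, known from left-right patterning of the embryo, had 36 counts in replicate 1 and 17 in replicate 2, both short of 1 CPM in replicate 2. Mmp20, known from tooth enamel, had no count. With no count, levels up to 0.0818 (replicate 1) and 0.0896 CPM (replicate 2) remain possible, being 3 counts in each library, for counting error only.

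**Figure D2:**
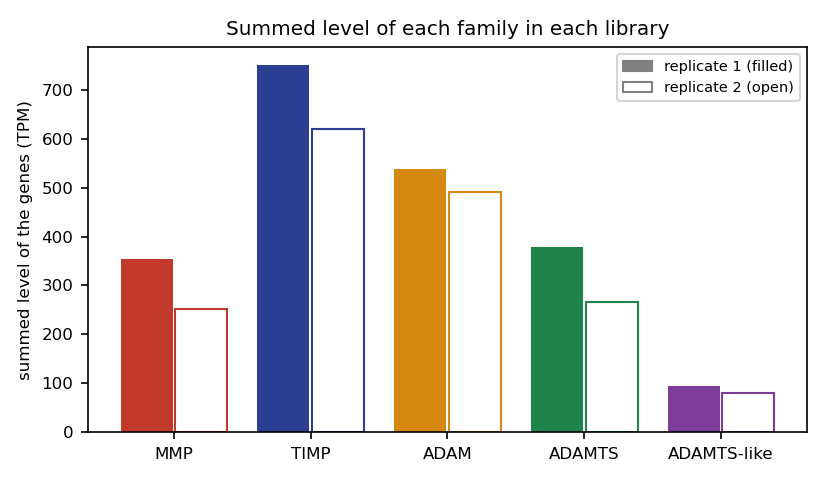
Summed TPM of each of the 5 families, with 1 bar for replicate 1 and 1 bar for replicate 2, on a linear axis from 0. TIMP genes had the highest sum in both libraries, 749.5 and 620.5 TPM in replicates 1 and 2, and Adamts-like genes the lowest, 94.4 and 80.7 TPM.

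Of the 10 Mmp genes that were not detected, 7 are neighbours in the genome. In RefSeq's gene order on GRCm38.p6, 10 Mmp genes follow each other on chromosome 9: Mmp13, Mmp12, Mmp1b, Mmp3, Mmp1a, Mmp10, Mmp8, Mmp27, Mmp20 and Mmp7. The whole run had 711 counts in replicate 1 and 390 counts in replicate 2. Of its 10 genes, 3 were detected (Mmp13, Mmp3 and Mmp27), none reached 10 CPM in both libraries and 3 had no count. The other 13 Mmp genes lie elsewhere, and 10 of them were detected. Several collagenases and stromelysins of the run are known to be induced by wounding, cytokines and growth factors through the transcription factor AP-1. Mmp12, Mmp27, Mmp20 and Mmp7 were listed in neither group, and the stromelysin Mmp11 lies outside the run.

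Promoter sequence is shown for genes of this run and for the most abundant genes outside it, because these differed in sequence as well as in level. RefSeq's table for GRCm38.p6 held a promoter for 54 of the 85 genes, including all 10 of the run. The 250 bases before each annotated start were searched on both strands for 3 motifs: the AP-1 site (TGAGTCA, or TGACTCA on the other strand), the TATA box (TATAAA or TTTATA) and the GC box (GGGCGG or CCGCCC). None of the 3 motifs contains another, although copies of the GC box may overlap each other, and a gene with several starts was counted if any start held the motif. The last 150 bases before the start are printed on the gene's strand, with motifs in capitals. From the run, Mmp13 and Mmp3 were detected, and Mmp10 and Mmp1a were not.
Mmp13: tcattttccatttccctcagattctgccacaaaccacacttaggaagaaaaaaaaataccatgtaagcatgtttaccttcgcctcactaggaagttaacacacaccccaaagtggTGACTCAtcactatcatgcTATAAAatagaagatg (chr9:7272364-7272513, plus strand)
Mmp3: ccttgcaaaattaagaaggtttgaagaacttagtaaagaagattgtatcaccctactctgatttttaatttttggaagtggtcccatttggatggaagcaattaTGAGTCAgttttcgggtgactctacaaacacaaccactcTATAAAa (chr9:7445672-7445821, plus strand)
Mmp10: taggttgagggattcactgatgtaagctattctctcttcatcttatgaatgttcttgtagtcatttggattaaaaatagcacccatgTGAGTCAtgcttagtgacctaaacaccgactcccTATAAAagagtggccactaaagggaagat (chr9:7502192-7502341, plus strand)
Mmp1a: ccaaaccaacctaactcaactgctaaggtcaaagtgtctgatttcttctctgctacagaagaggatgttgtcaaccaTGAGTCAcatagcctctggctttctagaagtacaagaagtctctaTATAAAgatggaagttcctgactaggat (chr9:7463991-7464140, plus strand)
Each of these 4 held an AP-1 site followed by a TATA box. They were taken from the 6 genes of the run that held both motifs and do not stand for the whole run. Mmp27, which was detected, and Mmp8 held none of the 3 motifs. Mmp12 held no TATA box and Mmp20 held no AP-1 site. In Mmp13 the AP-1 site began 35 bases and the TATA box 16 bases before the start, and in Mmp10 they began 63 and 29 bases before it. In Mmp1a they began 73 and 28 bases before the start. In Mmp3 they began 46 and 7 bases before it, so its TATA letters ended 2 bases before the annotated start. The 5 most abundant genes of the families by mean TPM, all outside the run, looked different.
Timp2: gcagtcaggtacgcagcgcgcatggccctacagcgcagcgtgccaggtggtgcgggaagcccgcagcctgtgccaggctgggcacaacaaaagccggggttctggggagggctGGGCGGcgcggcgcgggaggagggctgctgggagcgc (chr11:118355412-118355561, minus strand)
Adam15: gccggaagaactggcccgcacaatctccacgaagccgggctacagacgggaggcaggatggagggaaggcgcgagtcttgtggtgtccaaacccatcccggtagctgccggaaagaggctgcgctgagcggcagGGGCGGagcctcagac (chr3:89350029-89350178, minus strand)
Adamts1: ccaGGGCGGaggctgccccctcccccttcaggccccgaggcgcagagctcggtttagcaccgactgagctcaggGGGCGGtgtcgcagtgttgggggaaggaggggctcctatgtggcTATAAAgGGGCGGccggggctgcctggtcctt (chr16:85803114-85803263, minus strand)
Timp3: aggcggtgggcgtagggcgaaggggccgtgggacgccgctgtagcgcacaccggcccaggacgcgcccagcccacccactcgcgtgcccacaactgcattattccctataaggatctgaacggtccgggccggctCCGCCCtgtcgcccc (chr10:86300262-86300411, plus strand)
Mmp14: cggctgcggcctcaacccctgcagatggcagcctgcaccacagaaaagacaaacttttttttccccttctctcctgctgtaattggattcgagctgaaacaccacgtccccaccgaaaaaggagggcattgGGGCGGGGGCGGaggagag (chr14:54431448-54431597, plus strand)
Each of these 5 held at least 1 GC box within the bases shown and no AP-1 site, and Adamts1 held a TATA box beside its GC boxes. The coordinates of all 9 are those of GRCm38.p6, whereas the counts were made on mm39.

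Counted over all promoters in the table, the AP-1 site occurred in 7 of the 10 genes of the run, in 2 of the 44 other family members (Adam29 and Adam19) and in 5.16% of all 27025 genes. An AP-1 site and a TATA box stood together in 6 of the 10, against 1.01% of all genes. The GC box occurred in none of the 10, in 24 of the 44 other members and in 35.4% of all genes. The genes of the run also had a low base composition. Their median was 40.4% G and C, against 62.4% in the other members and 52.4% in all genes. This was not particular to the run. Neighbouring Adam genes on chromosome 8 were as low, with medians of 36.4% for Adam20 and Adam25 and 39.6% for Adam26b, Adam34l and Adam34. None of these Adam genes held a GC box. The 10 genes of the run arose by duplication of neighbouring copies, so they are not independent cases. A match of letters is a description and not a bound site.

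Detection went with the GC box among these families and among all genes. Of the 24 members with a GC box, 23 reached 1 CPM in both libraries, and the median level over the 24 was 15.5 TPM. The exception was Mmp25, a membrane-type enzyme known from leukocytes, with 42 counts in replicate 1 and 28 in replicate 2. Of the 30 members without a GC box, 11 reached that level, and the median over the 30 was 0.157 TPM. For all genes present in the table and the files, the shares detected were 73.0% of 9488 with the motif and 28.5% of 17046 without it, so the members followed a pattern that all genes showed. Members that lack both a GC box and an AP-1 site were not all silent: Adamts12, Adam23 and Timp4 were among the detected ones. An AP-1 site with a TATA box was found in 7 members, of which Mmp13 and Mmp3 were detected, and in 269 genes of the files, of which 32.3% were detected.

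**Figure D3:**
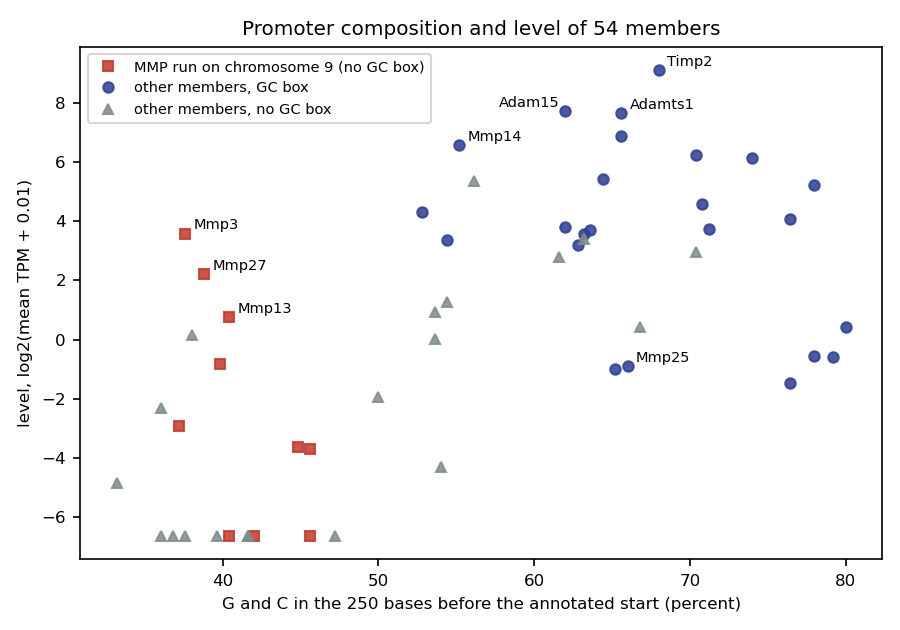
Share of G and C in the 250 bases before the annotated start (percent, horizontal) against log2(mean TPM + 0.01) (vertical) for the 54 family members with a promoter in RefSeq's table, with the chromosome 9 run marked apart. The run sits toward the low end of the horizontal axis, with a median of 40.4%. Other members sit there too, such as Adam29 at 33.2% and Adam21 at 36%. The abundant Timp2, Adam15 and Adamts1 sit between 62.0% and 68.0%.

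The ADAM family fell into a smaller detected set, mostly sheddases of body cells that cut proteins off the cell surface, and a larger set at or near 0. Its detected RNA was led by Adam15, a sheddase whose protein also binds integrins, with 237 TPM in replicate 1 and 186 TPM in replicate 2, the second most abundant of all 85 genes by mean TPM. The next 3 were close together. Adam17, which sheds tumour necrosis factor and ligands of the epidermal growth factor receptor, had 70.1 TPM in replicate 1 and 81.2 TPM in replicate 2. Adam10, which cuts Notch receptors and E-cadherin, had 70.6 TPM in replicate 1 and 70.1 TPM in replicate 2. Adam9 had 72.2 TPM in replicate 1 and 65.7 TPM in replicate 2. Adam9 was the highest of these 3 in replicate 1 and the lowest in replicate 2, so their order is within the spread. Adam19 had 39.0 TPM in replicate 1 and 42.7 TPM in replicate 2, and Adam8, known from myeloid cells, had 16.9 TPM in replicate 1 and 23.3 TPM in replicate 2. Adam33 had 6.46 TPM in replicate 1 and 6.13 TPM in replicate 2, and Adam12, known from mesenchymal cells, had 3.97 TPM in replicate 1 and 1.43 TPM in replicate 2. Adam28, known from lymphocytes, had 1 count in replicate 1 and 0 in replicate 2.

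The neural ADAMs, which lack a working protease site, were low apart from 1 gene. Adam23, a receptor of secreted Lgi proteins, had 10.8 TPM in replicate 1 and 4.66 TPM in replicate 2. Adam22, another receptor of this kind, had 1.48 TPM in replicate 1 and 1.17 TPM in replicate 2, and Adam11 had 0.739 TPM in replicate 1 and 0.481 TPM in replicate 2. The remaining 22 Adam genes, most of them known from testis or epididymis, had 422 counts in total in replicate 1 and 361 in replicate 2. Of these, 10 had no count in either library: Adam2, Adam6a, Adam6b, Adam20, Adam25, Adam26a, Adam26b, Adam34, Adam34l and Adam39. A run of 4 neighbours on chromosome 8 (Adam26b, Adam26a, Adam34l and Adam34) had none at all, and another run of 4 there (Adam24, Adam25, Adam20 and Adam39) had 3 counts in replicate 1 and 0 in replicate 2. In one more run of neighbours on that chromosome (Adam18, Adam3, Adam5, Adam32 and Adam9), Adam9 was the only detected gene, and Adam18 had 1 count in replicate 1 and 2 in replicate 2. The other undetected ones of the 22 had at most 32 counts in a library, which was Adam32 in replicate 1. Of the 22, 3 were detected, namely Adam30, Adam4 and Adam1a. Adam30 had 209 counts in replicate 1 and 225 in replicate 2, Adam4 had 58 counts in replicate 1 and 41 in replicate 2 and Adam1a had 53 counts in replicate 1 and 44 in replicate 2. In GENCODE M21, 63.7% of the exon bases of Adam1a lie within another gene on the same strand, and Adam1b is a close copy of it, so its count is uncertain, as are separate counts of Adam6a and Adam6b and of Adam26a and Adam26b.

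Among the ADAMTS genes the proteoglycanases, which cut versican and aggrecan, held most of the RNA. Adamts1 led them with 236 TPM in replicate 1 and 168 TPM in replicate 2, and was the third of all 85 genes by mean TPM. Adamts9 had 19.8 TPM in replicate 1 and 7.01 TPM in replicate 2, and Adamts4 had 17.3 TPM in replicate 1 and 8.81 TPM in replicate 2. They were followed by Adamts5 with 6.19 and 4.25 TPM and Adamts15 with 6.08 and 3.04 TPM in replicates 1 and 2. Adamts9 stood above Adamts4 in replicate 1 and below it in replicate 2. Adamts20, known from the pigment pattern of mice, was the lowest detected member at 0.393 and 0.301 TPM. Adamts8 passed 1 CPM in replicate 1 alone, with 65 counts in replicate 1 and 13 in replicate 2.

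All 3 procollagen N-proteinases, which remove the amino-terminal propeptide of fibrillar procollagens, were detected at different levels. Adamts2 had 45.5 TPM in replicate 1 and 29.4 TPM in replicate 2. Adamts14 had 12.02 TPM in replicate 1 and 22.0 TPM in replicate 2, and Adamts3 had 0.935 TPM in replicate 1 and 0.393 TPM in replicate 2. Adamts2 was above Adamts14 in both libraries, although the ratio between them was far larger in replicate 1. Among the other ADAMTS genes, Adamts12 led with 13.9 TPM in replicate 1 and 7.36 TPM in replicate 2, followed by Adamts10, an enzyme tied to fibrillin microfibrils, with 11.4 TPM in replicate 1 and 8.93 TPM in replicate 2. Adamts17, Adamts7, Adamts19 and Adamts6 had mean levels between 0.893 and 2.41 TPM, and Adamts18 was the lowest detected of this set at 0.599 and 0.394 TPM in replicates 1 and 2. Adamts13, the plasma protease that cuts von Willebrand factor, had 3 counts in each library, and Adamts16 had 1 count in replicate 1 and 3 in replicate 2.

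The Adamts-like genes encode secreted proteins that resemble ADAMTS enzymes but have no protease domain, and several bind fibrillin. Adamtsl4 was the highest, with 46.0 TPM in replicate 1 and 39.7 TPM in replicate 2. Adamtsl5 had 22.1 TPM in replicate 1 and 26.2 TPM in replicate 2. Adamtsl1 had 12.7 TPM in replicate 1 and 7.52 TPM in replicate 2 and Adamtsl2 had 12.2 TPM in replicate 1 and 6.03 TPM in replicate 2. Adamtsl3 was the lowest, with 1.38 TPM in replicate 1 and 1.25 TPM in replicate 2. The upper pair and Adamtsl3 kept their places in both libraries, while Adamtsl1 and Adamtsl2 differed by less than either differed between libraries.

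The libraries differed in these genes in one direction more than in the other. A two-sided exact binomial test set each gene's counts against the share that library totals give, adjusted by Benjamini-Hochberg over all 23690 genes with 10 or more counts. The test covers counting error alone and compares these 2 libraries, not conditions. Of the 85 genes, 13 had no count and 10 had 1 to 9 counts, which left 62 tested. Of the 62, 39 were higher in replicate 1, where 27.2% of all tested genes were called in that direction, 8 were higher in replicate 2, where 16.9% of all were, and 15 were not called. When the libraries were scaled to 8 cell junction genes in place of their totals, the split was 51 higher in replicate 1 and 2 higher in replicate 2, and that of all genes was 15387 and 593, against 6443 and 3993 by library totals. With TMM factors it was 34 and 8 for the family members, and 5069 and 5374 for all genes. Among the 52 detected members, 35 were higher in replicate 1 and 8 in replicate 2, against 32.9% and 22.6% of all detected genes.

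The median log2 ratio of the 62 genes, on log2(CPM + 0.5), was 0.46, against 0.07 over all tested genes. Allowing for a spread between libraries removes every call: with edgeR's exact test, at the coefficient of variation of 22.7% that an intercept-only fit gave for these libraries, 0 of 62 members passed after adjustment, against 0.279% of all genes, and 15 had an unadjusted p under 0.05, against 7.18% of all genes. The intercept-only fit took the difference between these same 2 libraries as spread, so the loss of calls was in part built in. With 2 libraries a sign-flip test cannot give a two-sided p under 0.5, so differences in the lines that follow describe this pair of libraries.

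By family, the ADAMTS genes had the highest median ratio. Beside the counts below, 27.2% of all tested genes were called higher in replicate 1 and 16.9% in replicate 2. Of the 17 tested ADAMTS genes, 15 were higher in replicate 1 and 1 in replicate 2, with a median log2 ratio of 0.72. For Mmp genes the counts were 10 and 3 of 17, with a median of 0.56, and all 4 TIMPs were higher in replicate 1 (median 0.50). For Adam genes they were 7 and 3 of 19, with a median of 0.14, close to that of all genes. Within the ADAMs, the 8 tested proteases of body cells split into 3 higher in replicate 1, 3 higher in replicate 2 and 2 not called.

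The largest ratio among ADAMTS genes at 10 CPM in both libraries was that of Adamts9, with 71.8 CPM in replicate 1 and 25.4 CPM in replicate 2, a ratio of 2.83 (95% interval 2.62 to 3.07). The ratio of Adamts4 was 1.97 (95% interval 1.80 to 2.15), that of Adamts12 1.89 (95% interval 1.74 to 2.05) and that of Adamts15 2.01 (95% interval 1.74 to 2.32), the last with 609 counts in replicate 1 and 277 in replicate 2. Adamts1, with more reads, had a ratio of 1.40 (95% interval 1.37 to 1.44), and Adamts2 had one of 1.55 (95% interval 1.48 to 1.62). Lower counts gave wider intervals: the ratio was 4.56 (95% interval 2.49 to 9.03) for Adamts8, 2.39 (95% interval 1.67 to 3.46) for Adamts3, 2.50 (95% interval 1.96 to 3.195) for Adamts19, 1.98 (95% interval 1.52 to 2.59) for Adamts6 and 1.69 (95% interval 1.45 to 1.99) for Adamts17. Adamts18 was called at 1.52 (95% interval 1.05 to 2.22), with 80 counts in replicate 1 and 48 in replicate 2, and did not pass with TMM factors or with no filter on low counts. Adamts14 went the other way from its relatives Adamts2 and Adamts3. It had 26.4 CPM in replicate 1 and 48.3 CPM in replicate 2, a ratio of 0.547 (95% interval 0.504 to 0.592), and remained higher in replicate 2 under each scaling tried.

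For the metalloproteinases with a mean of 1 CPM or more that passed the test, ratios above 1.5 were found for Mmp11 (2.73, 95% interval 2.32 to 3.22), Mmp3 (2.21, 95% interval 1.85 to 2.64), Mmp9 (2.04, 95% interval 1.85 to 2.26), Mmp23 (1.86, 95% interval 1.54 to 2.24), Mmp27 (1.82, 95% interval 1.41 to 2.35), Mmp19 (1.62, 95% interval 1.49 to 1.75) and Mmp2 (1.56, 95% interval 1.496 to 1.63). Below that mean, Mmp16 was called at a ratio of 4.23 (95% interval 2.18 to 9.004), and Mmp21, at 1.93 (95% interval 1.06 to 3.67), did not pass the test. Mmp14, with 5896 counts in replicate 1, had a smaller ratio of 1.21 (95% interval 1.17 to 1.26). Mmp28, Mmp15 and Mmp13 were higher in replicate 2. Mmp28 had 17.2 CPM in replicate 1 and 26.0 CPM in replicate 2, a ratio of 0.659 (95% interval 0.594 to 0.731). Mmp15 had a ratio of 0.722 (95% interval 0.653 to 0.798). Mmp13 had 1.06 CPM in replicate 1 and 2.57 CPM in replicate 2, a ratio of 0.414 (95% interval 0.276 to 0.611). Scaled to the cell junction genes, Mmp28 and Mmp15 kept that direction without passing the test, and Mmp13 still passed. Mmp13 thus ran against Mmp3 and Mmp27, which lie in the same run of genes on chromosome 9.

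Among the inhibitors, the most abundant one differed least. The ratio was 1.15 (95% interval 1.13 to 1.17) for Timp2, 1.52 (95% interval 1.47 to 1.57) for Timp3, 1.37 (95% interval 1.06 to 1.77) for Timp1 and 3.002 (95% interval 2.07 to 4.44) for Timp4. Timp1 is X-linked and rested on few counts, and its call was lost with TMM factors. Among the sheddases, Adam10 did not pass the test, with a ratio of 1.01 (95% interval 0.969 to 1.05) and a binomial adjusted p of 0.760, nor did Adam33, with a ratio of 1.06 (95% interval 0.931 to 1.20) and a binomial adjusted p of 0.530. Adam17 was higher in replicate 2 by the library totals, with a ratio of 0.865 (95% interval 0.831 to 0.900), and Adam19 likewise with 0.917 (95% interval 0.878 to 0.958), but both were higher in replicate 1 when scaled to the cell junction genes, as was Adamtsl5, whose ratio by the totals was 0.846 (95% interval 0.782 to 0.915). Adam8 had a ratio of 0.727 (95% interval 0.670 to 0.789) and no longer passed the test under that scaling. Adam12 and Adam23 were higher in replicate 1, with ratios of 2.78 (95% interval 2.31 to 3.37) and 2.31 (95% interval 2.06 to 2.60). Larger ratios, on few counts and under 1 CPM in both libraries, were called for Adam5, at 4.56 (95% interval 1.29 to 24.6), and Adam32, at 3.25 (95% interval 1.51 to 7.73). Adamtsl2 (2.03, 95% interval 1.77 to 2.32) and Adamtsl1 (1.69, 95% interval 1.57 to 1.82) were the Adamts-like genes above 1.5.

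**Figure D4:**
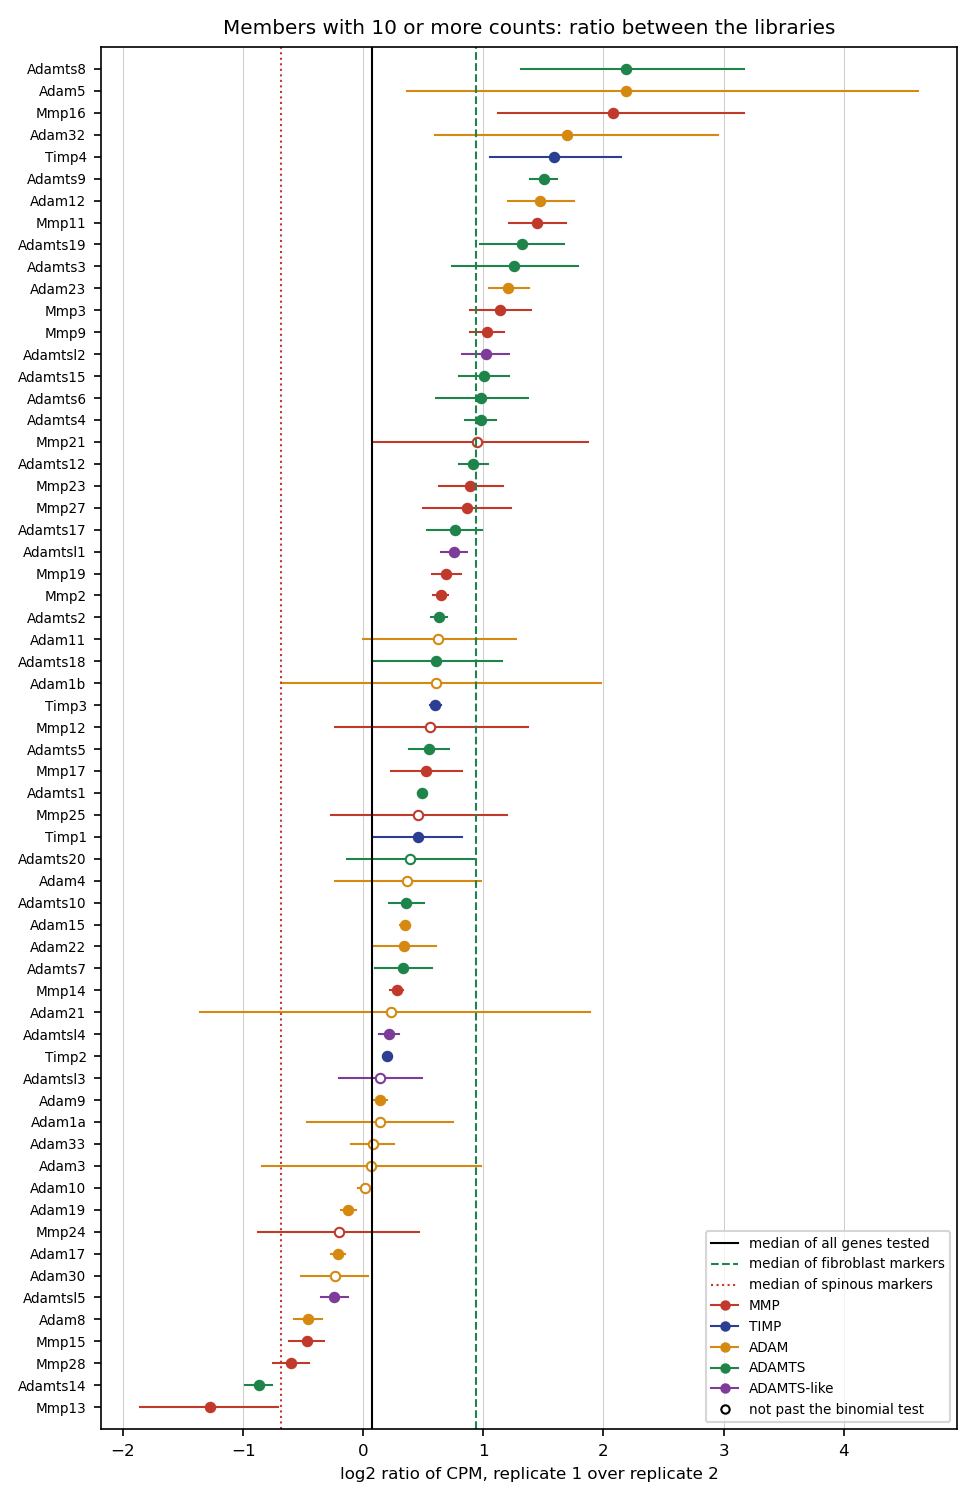
Log2 ratio of CPM, replicate 1 over replicate 2, of the 62 family members with 10 or more counts, with exact 95% intervals for counting error; filled points passed the binomial test and vertical lines mark the medians of all tested genes, of fibroblast markers and of spinous keratinocyte markers. Most points lie to the right of the median of all genes, and Mmp13 and Adamts14 lie farthest to the left.

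Markers of cell types moved between the libraries as well. Of all tested genes, 27.2% were called higher in replicate 1 and 16.9% in replicate 2. All 10 fibroblast markers were higher in replicate 1, with log2 ratios from 0.70 to 1.09, a median of 0.94 and a summed level of 6461 TPM in replicate 1 and 3255 TPM in replicate 2. All 6 tested mural markers, all 5 mast cell markers, 6 of 7 endothelial and 4 of 5 melanocyte markers were also higher there, with median log2 ratios of 0.92 for mural, 0.98 for mast cell, 0.55 for endothelial and 0.76 for melanocyte markers. All 8 spinous keratinocyte markers were higher in replicate 2, with a median log2 ratio of -0.68, as were 8 of 10 basal markers, with a median of -0.34 that turned to 0.11 when scaled to the cell junction genes. Macrophage markers divided, with 2 higher in replicate 1 and 5 higher in replicate 2 of 10. Highest of their lists were Krt1 with 651 and 1836 TPM, Perp with 1748 and 2209 TPM, Cspg4 with 51.1 and 33.6 TPM, Cdh5 with 15.7 and 9.31 TPM, Mcpt4 with 14.6 and 6.44 TPM, Pmel with 10.02 and 6.60 TPM and Cd3e with 1.29 and 1.56 TPM in replicates 1 and 2. Counts of the mural marker Tagln were 0 (replicate 1) and 5 (replicate 2). Of the 62 family members, 13 had a log2 ratio within the range of the fibroblast markers and 14 were at or above their median. The same counts were not made over all tested genes, so they cannot be set against a background share. The part of these cell types in the ratios of the family members was not tested.

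Other genes of the same pathways were taken whole from 4 lists. The calls in each list stand beside 27.2% of all tested genes higher in replicate 1 and 16.9% higher in replicate 2. Of 13 partners of the sheddases and proprotein convertases, 12 were detected, and 4 were higher in replicate 1 and 5 in replicate 2 with a median log2 ratio of -0.04 by library totals and 0.30 when scaled to the cell junction genes. The convertase Furin, which removes the propeptide of ADAMs and membrane-type Mmps, had 104 TPM in replicate 1 and 119 TPM in replicate 2. Rhbdf2, or iRhom2, the carrier that brings Adam17 to the surface, had 71.3 TPM in replicate 1 and 85.1 TPM in replicate 2, and Tspan14, a tetraspanin that accompanies Adam10, had 62.7 TPM in replicate 1 and 57.6 TPM in replicate 2. Tspan10 was the lowest, with 8 counts in replicate 1 and 8 in replicate 2. Furin and Rhbdf2 were higher in replicate 2 by the binomial test, and Tspan14 was higher in replicate 1.

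All 17 listed substrates of the sheddases were detected, 4 higher in replicate 1 and 11 higher in replicate 2, with a median log2 ratio of -0.27 that turned to 0.18 when scaled to the cell junction genes. The syndecan Sdc4 had 1057 TPM in replicate 1 and 1036 TPM in replicate 2, the macrophage receptor Csf1r 552 TPM in replicate 1 and 668 TPM in replicate 2 and E-cadherin, Cdh1, 329.6 TPM in replicate 1 and 471 TPM in replicate 2. Btc, a ligand of the epidermal growth factor receptor, was the lowest with 3.29 and 3.22 TPM in replicates 1 and 2. Csf1r and Cdh1 are also in the macrophage and cell junction marker lists.

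Of 11 other inhibitors and activators of matrix proteases, 7 were detected, and 6 of 9 tested were higher in replicate 1 and 2 in replicate 2. Bsg, an inducer of metalloproteinases, had 165 TPM in replicate 1 and 186 TPM in replicate 2. Plau, the urokinase that activates plasminogen, had 113 TPM in replicate 1 and 99.6 TPM in replicate 2, and its receptor Plaur had 55.7 TPM in replicate 1 and 36.5 TPM in replicate 2. Plasminogen itself, Plg, had no count. Of 14 ADAMTS substrates and procollagen-processing genes, 11 were detected, 11 were higher in replicate 1 and none in replicate 2, with a median log2 ratio of 0.93. Col1a1, Col3a1 and Col1a2, which are fibroblast markers as well, had 2335 and 1097 TPM, 1957 and 1029.9 TPM and 1103 and 531 TPM in replicates 1 and 2, and Bcan, a brain proteoglycan, was the lowest with 0.114 and 0.116 TPM.

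**Figure D5:**
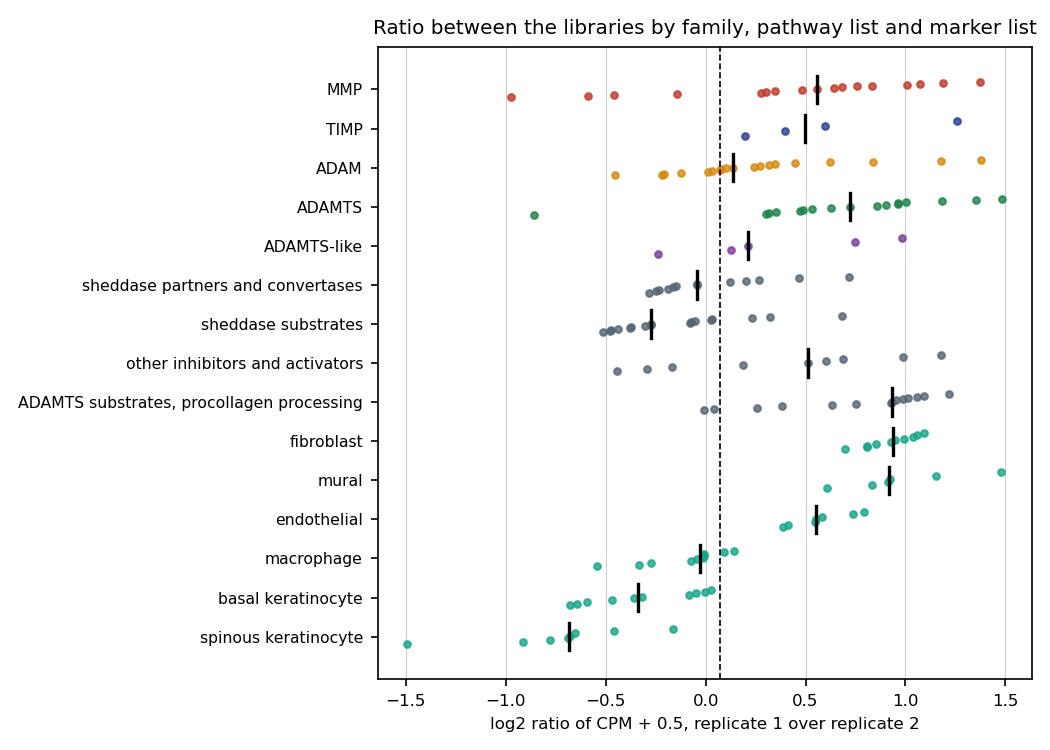
Log2 ratio of CPM + 0.5, replicate 1 over replicate 2, for each tested gene of the 5 families, the 4 pathway lists and 6 marker lists, with a bar at each median and a dashed line at the median of all tested genes. The ADAMTS median is 0.72 and the ADAM median 0.14, beside 0.94 for fibroblast, 0.92 for mural and 0.55 for endothelial markers.

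Some counts may include reads of overlapping genes, since no source used here states whether counting used strand. In GENCODE M21 on GRCm38, 20 of the 84 family members it holds share exon bases with another gene, and for 18 of them the gene with the largest overlap lies on the opposite strand. The share was 21.3% of the exon bases of Timp3, with Syn3, which had 1725 counts in replicate 1 and 1540 in replicate 2 against 9937 counts in replicate 1 and 5980 in replicate 2 for Timp3. It was 22.3% for Mmp19, with Tmem198b (628 counts in replicate 1 and 474 in replicate 2), and 20.6% for Adam15. The partners of Timp3, Mmp19 and Adam15 lie on the opposite strand, so their reads within these bases were kept apart only if counting used strand.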

How the data were processed

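Total RNA of sorted cells was depleted of ribosomal RNA and sequenced as paired ends, per the labels' protocols. The deposited files give raw counts per gene and a gene length in bases, counted with featureCounts against mm39, per the submitters' processing notes. Aligner, annotation, strand setting and handling of multi-mapping reads were not given in the sources used here. Gene names and lengths were identical for all 50559 genes of both files.

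CPM were computed from all counts, and TPM from counts and deposited length. Both samples form 1 group, so levels have no test. The quasi-likelihood test cannot be fitted with 1 library a side, so the libraries were compared by a two-sided exact binomial test against library totals over 23690 genes with 10 or more counts, Benjamini-Hochberg adjusted at 0.05. Binomial intervals are exact (Clopper-Pearson, 95%). They and the floor of 3 counts account for counting error alone, because PCR copies of a molecule cannot be recognised here. Alternatives were edgeR's exact test (dispersion from an intercept-only fit), TMM and DESeq2 size factors, scaling to 8 cell junction genes, other filters and pseudocounts, and leaving out each replicate. Both tests were tested on simulated data. Those data held counting error alone for the binomial test. For edgeR's exact test they held a spread below the 22.7% that the fit gave for these libraries.

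The genes, the lists and the tests were chosen with earlier results of these data known. Named are members at 10 CPM in both libraries, members past the binomial test by over 1.5-fold with a mean of 1 CPM or more, all TIMPs, the highest and lowest detected member of each list, members without a count, the 3 highest and the lowest gene of each pathway list and the highest marker of each list, of which 1 is not reported here. Other genes, and the promoters shown, were chosen after their values were seen. Promoters come from RefSeq (GRCm38.p6) and overlaps from GENCODE M21 (GRCm38). Coordinates on mm39 are not given, as that genome was not used here. Software was Python 3.11.15, numpy 2.4.6, pandas 2.3.3, scipy 1.17.1, matplotlib 3.10.9, R 4.3.3, edgeR 4.0.16 and DESeq2 1.42.0.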

Additional observations from a re-analysis of the deposited data

How the results depend on the processing

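With 2 libraries of 1 group the calls describe a pair of libraries, and counting depth limits the genes under 1 CPM most. The number of detected members, 52, was 56 at 0.5 CPM, 43 at 1 TPM and 52 to 56 with either replicate alone, and that of pathway genes, 47, was 47 to 49 with either replicate alone. The summed level of all members, 3283 CPM on average, was 2918 to 3648 CPM when a replicate was left out. The TIMP share of the members' RNA, 35.8% in TPM, was 31.7% in CPM and 35.4% to 36.3% with either replicate alone. The 39 calls higher in replicate 1 were 34 with TMM or DESeq2 size factors, 38 with no filter, 35 among genes at 1 CPM in both libraries, 51 with scaling to cell junction genes and 0 with edgeR's exact test. Over all genes, the 6443 calls in that direction were 5069 with TMM factors, 5071 with DESeq2 size factors and 6275 with no filter. They were 5213 among genes at 1 CPM in both libraries and 15387 with junction scaling. The 8 calls higher in replicate 2 were 2 with junction scaling and 0 with edgeR's exact test. Over all genes, the 3993 calls higher in replicate 2 were 593 with junction scaling. The median log2 ratio of the members, 0.46, was 0.80 with junction scaling, 0.33 with no filter and 0.29 with a pseudocount of 2 CPM. Junction scaling adds 0.45 to every log2 ratio before the pseudocount, moved the median of all genes to 0.44, against 0.07 by library totals, and turned 7 values positive: Adam17 (0.24), Adam19 (0.32), Adamtsl5 (0.21), the partners of the sheddases (0.30), their substrates (0.18), basal keratinocyte markers (0.11) and macrophage markers (0.40). TMM factors, which shift ratios by -0.08, and DESeq2 size factors each left 5 of the 47 calls short of the threshold, and no called member changed direction under them. No paired analysis was possible because the libraries form 1 group.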

Other observations

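Adam30, known from testis, was the highest of the 22 remaining Adam genes, with 3.99 TPM in replicate 1 and 4.72 TPM in replicate 2 from 209 counts in replicate 1 and 225 in replicate 2. In GENCODE M21 it shares no exon base with another gene, and its nearest protein-coding gene is Notch2, on the same strand, which had 124 TPM in replicate 1 and 150.1 TPM in replicate 2. Between the libraries (replicate 1 over replicate 2), Adam30 had a log2 ratio of -0.22 and Notch2 one of -0.27. The part of Notch2 in the count of Adam30 was not tested.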
